A study of Mus musculus with 6 samples.

Results

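The 37 G2 and M phase genes described here encode proteins that take a cell from finished DNA replication through mitosis to division. They were chosen by function, as named cyclins, kinases, kinetochore and spindle proteins, motors, cytokinesis factors and chromosome proteins, but with earlier results of these data known. All 37 were among the 27179 genes of the deposited count table, with at least 161 counts in every library, and all 37 passed the filter on low counts. RNA was sequenced from mouse group 2 innate lymphoid cells (ILC2s), tissue lymphocytes that release type 2 cytokines. A gate on Chat, which encodes the acetylcholine-making enzyme choline acetyltransferase, divided them into 3 Chat negative and 3 Chat positive samples, numbered 1, 2 and 3 within each gate. The sources used here do not give strain, age, tissue, any treatment or the means of detecting Chat. Nor do the labels say what a sample number stands for or whether samples came from separate animals, so each p-value reflects the spread of these 6 samples alone, part of which may be technical.

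Entry into mitosis is driven by CDK1 bound to cyclin B, helped by the kinases PLK1, Aurora A and Aurora B. Chromosomes then condense, kinetochores bind spindle microtubules, and the spindle checkpoint holds back the anaphase-promoting complex until all chromosomes are attached. Most of these genes are transcribed mainly in late S, G2 and M phase, under the DREAM, B-MYB and FOXM1 complexes, so their RNA is widely used as a sign of proliferation. ILC2s in tissue divide slowly at rest and expand when activated by cytokines such as IL-33 and IL-25. In bulk RNA, more dividing cells and more of this RNA per dividing cell cannot be told apart.

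Promoters of such genes often carry a cell-cycle homology region (CHR), read by these complexes and written TTTGAA and also TTTAAA, together with a CCAAT box. Of the 37 genes, 31 matched the RefSeq promoter table (GRCm38.p6, the assembly of mm10). Ccna2, Aurkb, Kif20a, Tpx2, Stmn1 and Smc4 are named only. Both strands were searched for each motif, and neither CHR spelling contains CCAAT or lies within it. In the window of 250 bases before to 50 after the start, 26 of 31 members (83.9%) had a CHR match, beside 19.4% of the windows of all genes tested and 27.6% of all promoters in the table. CCAAT was present in 74.2% of the members' windows, 37.7% of those of genes tested and 37.4% of all. In only the 150 bases before the start, 11 of 31 members (35.5%) had a CHR match, beside 9.10% of genes tested and 14.7% of all promoters. Of 79 windows of 69 other G2 and M phase genes (a list described below), 59.5% had a CHR match and 70.9% CCAAT. In the 150 bases their CHR share was 39.2%. A match is a run of letters and not a shown binding site. The 4 members with the highest mean level among those with a match in these 150 bases are printed to show how it lies in the promoter. Each reads 5′ to 3′ on the gene's strand, stops where the annotated gene begins (for Top2a and Mki67 10 and 71 bases short of the table's start), and has the CHR match in capitals (TTCAAA is TTTGAA on the other strand).
Top2a (chr11:99024200-99024339, minus strand): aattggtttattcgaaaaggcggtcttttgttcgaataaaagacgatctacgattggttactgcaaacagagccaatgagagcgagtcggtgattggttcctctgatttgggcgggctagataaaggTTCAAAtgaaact
Ube2c (chr2:164769779-164769928, plus strand): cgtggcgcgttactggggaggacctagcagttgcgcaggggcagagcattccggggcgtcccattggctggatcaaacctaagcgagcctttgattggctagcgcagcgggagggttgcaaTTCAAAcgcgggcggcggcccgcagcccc
Kif11 (chr19:37376232-37376381, plus strand): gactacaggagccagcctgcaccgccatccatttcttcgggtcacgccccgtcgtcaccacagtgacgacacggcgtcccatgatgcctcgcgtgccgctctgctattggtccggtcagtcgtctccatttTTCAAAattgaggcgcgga
Mki67 (chr7:135716451-135716529, minus strand): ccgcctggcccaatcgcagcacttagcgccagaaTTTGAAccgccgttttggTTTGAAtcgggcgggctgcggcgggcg
In Top2a, Ube2c and Kif11 a single match ends 18, 24 and 14 bases before the table's start, with CCAAT boxes upstream of it. Mki67 has 2 matches close together, the nearer one ending 93 bases before the table's start. Of the bases before that start, 71 lie inside the annotated gene, so this distance depends on the start used.

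The libraries held 37154269 to 50361306 counts, with a count in 15335 to 16081 genes. Of 11 ILC2 markers, Il5, Il2ra, Gata3, Il7r, Id2 and Klrg1 ran from 483 CPM (Klrg1) to 13765 CPM (Il5), where CPM is edgeR's count relative to a library size scaled by TMM factors. Areg, Il13 and Rora stood at 106 CPM or more, Il1rl1, the IL-33 receptor, at 58.7 to 159 CPM, and Thy1 at 5.19 to 19.6 CPM. Markers of other cells were mixed. Cd8b1, Tnfrsf17, Siglech, Mcpt4, Cpa3 and Ms4a2 had 0 counts in all libraries, and Cd8a, Ms4a1, Lyz2, Csf1r and Ncr1 had at most 5 in any. Others listed as such markers were not low: Xbp1 (plasma cells) stood at 466 to 507 CPM, Kit at 153 to 276, Xcr1 (dendritic cells) at 123 to 149.98, Cd79b (B cells) at 66.2 to 85.4, Pecam1 (endothelium) at 46.5 to 95.3, Mcpt8 (basophils) at 24.9 to 203, Epcam (epithelium) at 31.5 to 87.0 and Cd3g (T cells) at 14.6 to 39.8. Chat, the gating gene, had 16.5, 26.5 and 17.5 CPM in Chat negative libraries 1, 2 and 3 and 188, 169 and 204 in Chat positive ones, a log2 change of 3.21 (SE 0.21, adjusted p = 0.0174 in edgeR's quasi-likelihood test), which checks the labels.

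Summed, the 37 genes had 2931, 5837 and 2426 CPM in Chat negative libraries 1, 2 and 3 and 3146, 5971 and 2457 CPM in Chat positive ones. They took 0.292%, 0.587% and 0.238% of the counts of Chat negative libraries 1, 2 and 3, and 0.313%, 0.610% and 0.246% of those of the Chat positive libraries. The levels thus followed the sample number far more than the gate. Below, values for 3 libraries are in the order of sample numbers 1, 2 and 3, and a fold for number 2 is the mean CPM of both number 2 libraries over the mean of the other 4.

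**Figure D1:**
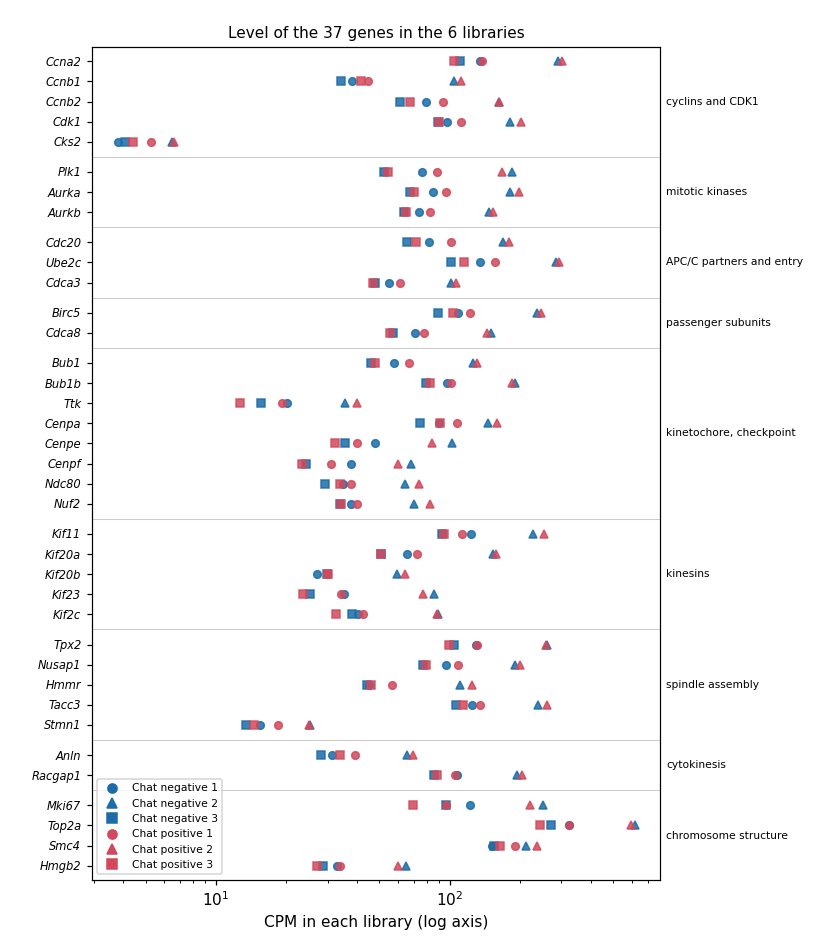
CPM (log axis) of each of the 37 genes in the 6 libraries, grouped by role, with blue for Chat negative, red for Chat positive, and circles, triangles and squares for sample numbers 1, 2 and 3. For every gene both triangles lie to the right of the other 4 points, while red and blue points of one number lie close together.

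Cyclins, CDK1 and its partner subunit came first in the order of action. Ccna2, the cyclin of S and G2 phase, stood at 134, 289.9 and 111 CPM in the Chat negative and 137, 301 and 104 CPM in the Chat positive libraries. Ccnb1, whose product switches on CDK1 for mitotic entry, stood at 38.3, 104 and 34.4 CPM (Chat negative) and 44.7, 112 and 41.8 CPM (Chat positive). Its relative Ccnb2 stood at 79.1, 162 and 61.4 CPM (Chat negative) and 93.2, 162 and 67.4 CPM (Chat positive). For all 3 cyclins the number 2 library was the highest of its gate. Cdk1, the mitotic kinase itself, stood at 97.2, 181 and 88.9 CPM (Chat negative) and 112, 202 and 90.1 CPM (Chat positive), a fold of 1.98 for number 2. Cks2, a small docking subunit of CDK complexes, stood at 3.81, 6.50 and 4.08 CPM in the Chat negative and 5.27, 6.604 and 4.42 CPM in the Chat positive libraries, and its fold of 1.49 was among the smallest. Part of its sequence is not its own: 29.7% of its 50-base words also occur in other annotated transcripts, chiefly Gm15452, so reads may have been split between them.

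Mitotic kinases act next. Plk1, which drives mitotic entry and centrosome maturation, stood at 76.0, 184 and 52.1 CPM in the Chat negative and 88.3, 167 and 54.4 CPM in the Chat positive libraries, a fold of 2.59. Aurka, the spindle pole kinase, stood at 84.6, 180.2 and 67.8 CPM (Chat negative) and 96.4, 197 and 70.3 CPM (Chat positive), and Aurkb, the kinase of the chromosomal passenger complex, at 73.9, 147 and 64.0 CPM (Chat negative) and 82.3, 152 and 65.1 CPM (Chat positive). In each of these 3 genes number 3 was the lowest library of its gate. Partner subunits of that passenger complex, which corrects faulty attachments, had the same order of numbers. Birc5 (survivin) stood at 108, 235 and 88.7 CPM (Chat negative) and 122, 244 and 103 CPM (Chat positive), and Cdca8 (borealin) at 71.0, 150.5 and 57.0 CPM (Chat negative) and 77.8, 145 and 55.3 CPM (Chat positive).

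The mitotic entry gene Cdca3 was grouped with regulators that work with the anaphase-promoting complex, the ubiquitin ligase that ends mitosis. Folds in this group were 1.97 to 2.27. Ube2c, the ubiquitin-conjugating enzyme of the complex, stood at 135, 284 and 101 CPM in the Chat negative and 156, 293 and 115 CPM in the Chat positive libraries. Cdc20, its activator in mitosis, stood at 81.1, 169 and 65.5 CPM (Chat negative) and 101, 179 and 71.9 CPM (Chat positive). Cdca3, a trigger of mitotic entry, stood at 54.9, 101 and 47.9 CPM (Chat negative) and 61.3, 106 and 47.1 CPM (Chat positive). In all 3 the number 2 libraries were the highest, and the gates overlapped.

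Kinetochore and checkpoint genes were 8 of the 37. Bub1b, a checkpoint protein that inhibits CDC20, stood at 96.9, 189.7 and 79.4 CPM in the Chat negative and 101, 184 and 82.5 CPM in the Chat positive libraries, with its relative Bub1 at 57.4, 126 and 46.1 CPM (Chat negative) and 66.7, 130.3 and 47.9 CPM (Chat positive). Cenpa, the histone H3 variant that marks centromeres, stood at 90.0, 145 and 74.7 CPM (Chat negative) and 107, 159 and 90.9 CPM (Chat positive). Its fold for number 2, 1.68, was the lowest of the group. The kinetochore motor Cenpe stood at 47.9, 102 and 35.6 CPM (Chat negative) and 40.2, 83.7 and 32.2 CPM (Chat positive) and had the highest, 2.38. The remaining 4 were the checkpoint kinase Ttk, the large kinetochore protein Cenpf and the microtubule-binding subunits Ndc80 and Nuf2. Their levels ran from 12.7 CPM (Ttk in Chat positive 3) to 82.6 CPM (Nuf2 in Chat positive 2), with folds of 2.02 (Ndc80) to 2.24 (Ttk).

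Kinesins, the motors that build the spindle and the midzone, included the member with the largest fold. Kif23, the motor of centralspindlin, stood at 35.1, 85.9 and 25.2 CPM in the Chat negative and 34.2, 77.1 and 23.6 CPM in the Chat positive libraries, a fold of 2.76 for number 2. Kif11, which pushes spindle poles apart, stood at 124, 227 and 92.2 CPM (Chat negative) and 113, 252 and 94.4 CPM (Chat positive). Kif20a, a motor of the anaphase midzone, had a fold of 2.59, Kif2c, which takes microtubules apart, 2.31, and Kif20b 2.12. Racgap1, the partner of KIF23 in centralspindlin, stood at 107, 193 and 85.7 CPM (Chat negative) and 105, 202 and 88.4 CPM (Chat positive), and the contractile ring scaffold Anln at 31.4, 65.8 and 28.0 CPM (Chat negative) and 39.3, 69.7 and 33.9 CPM (Chat positive). Both cytokinesis genes had number 2 on top, with folds of 2.05 and 2.04.

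Spindle assembly factors had a like order of libraries. Tpx2, which activates Aurora A on the spindle, stood at 129.9, 259.7 and 104 CPM in the Chat negative and 130.2, 258 and 99.5 CPM in the Chat positive libraries, and Tacc3, which cross-links spindle microtubules, at 124, 239 and 106 CPM (Chat negative) and 134, 261 and 114 CPM (Chat positive). Nusap1 and Hmmr, which bind spindle microtubules, had folds of 2.16 and 2.45. Stmn1, which encodes a tubulin-binding protein, stood at 15.4, 25.2 and 13.4 CPM (Chat negative) and 18.4, 25.1 and 14.6 CPM (Chat positive), with a fold of 1.63. Of its 50-base words, 36.5% occur in other annotated transcripts, chiefly Gm11223.

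Chromosome proteins held the member with the smallest fold. Top2a, the topoisomerase that untangles sister chromatids, stood at 323, 616 and 269.7 CPM in the Chat negative and 322, 596 and 243 in Chat positive libraries. Mki67, which encodes Ki-67, the coat of mitotic chromosomes and a common proliferation marker, stood at 123, 250.3 and 96.5 CPM (Chat negative) and 96.1, 220.4 and 69.6 CPM (Chat positive). Smc4, a condensin subunit, stood at 151, 211 and 154 CPM (Chat negative) and 190.3, 236 and 163 CPM (Chat positive) and had the smallest fold for number 2 of all 37, 1.36. The DNA-bending protein gene Hmgb2 stood at 32.8, 64.9 and 28.8 CPM (Chat negative) and 33.8, 60.0 and 27.0 CPM (Chat positive). Per kilobase of the longest annotated transcript, mean levels were highest for Ube2c (82.6 CPM per kb), Top2a (75.6), Ccnb2 (68.0) and Cdc20 (62.1), and lowest for Cenpf (3.66), Cenpe (7.20) and Kif20b (7.22). This order rests on the length used. Per kilobase of the median transcript length, the highest were Top2a (492), Smc4 (244), Bub1b (198) and Cdk1 (185), with Ube2c at 115, and the lowest Cks2 (7.39), Ttk (10.6) and Cenpf (20.2), with Cenpe at 97.9 and Kif20b at 56.3.

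The comparison of the gates asks which transcripts separate ILC2s sorted as Chat positive from those sorted as Chat negative, and here whether mitotic transcripts do. None of the 37 genes passed in edgeR's quasi-likelihood test at an adjusted p of 5%, where 0.00771% of genes tested were called (1 of 12967, Chat). At an unadjusted p under 5% the count of members was also 0, where 315 of the 12967 genes tested were. Chat positive minus Chat negative, 27 members had a log2 change above 0 and 10 below, where 6594 and 6373 of the 12967 genes tested had. The members' median was 0.09, beside 0.00 for all genes tested. With a single library left out, which puts the numbers out of balance between the gates, the count above 0 was 7, 37 and 3 without Chat negative 1, 2 and 3 and 34, 2 and 36 without Chat positive 1, 2 and 3. With both libraries of number 1, 2 or 3 left out it was 26, 25 and 28. Changes ran from -0.28 (Mki67) to 0.20 (Cenpa), with a median SE of 0.44. The 95% interval was narrowest for Smc4, -0.25 to 0.63, and the outermost limits over all 37 were -1.48 (Mki67) and 1.46 (Ccnb1). DESeq2 and limma-voom without the number also called 0 members, where they called 4 and 1 of the 12967 genes tested.

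In every member the libraries of the gates overlapped, where 8.14% of genes tested had none. Means over the Chat negative and the Chat positive libraries (± SD, n = 3 each) were 144 ± 79.6 and 157 ± 76.6 CPM for Birc5, 122 ± 51.1 and 135 ± 59.5 for Cdk1, and 58.8 ± 38.9 and 66.2 ± 39.8 for Ccnb1. Among the 10 genes below 0, these means were 156 ± 82.3 and 129 ± 80.5 CPM for Mki67 and 61.9 ± 35.4 and 52.0 ± 27.7 for Cenpe. In these 5 genes the SDs were larger than the differences, and each gate holds 1 library of number 2.

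**Figure D2:**
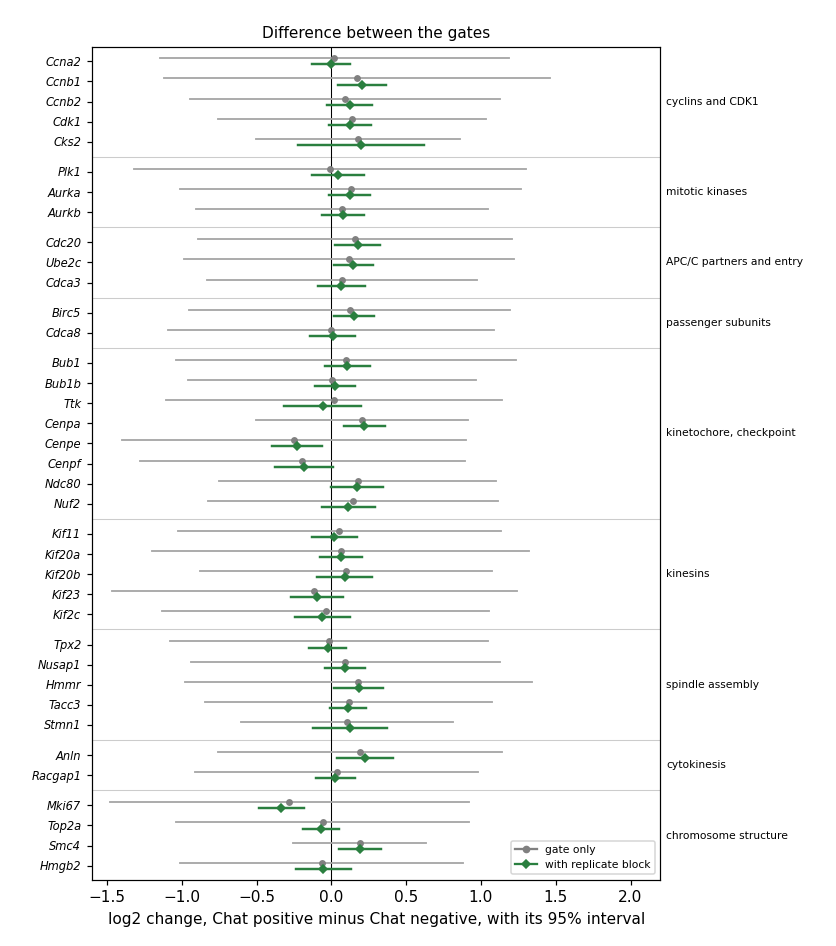
Log2 change of each gene, Chat positive minus Chat negative, with its 95% interval, from the fit on the gate alone (grey circles) and from the fit that adds the sample number (green diamonds). Without the number all 37 intervals cross 0, and with it they are narrower and lie between -0.49 and 0.62, with Mki67 at -0.33 and Cenpa at 0.22.

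Same-numbered libraries deviated together across genes, most clearly in number 2 (r of 0.67). A second fit therefore compared the gates within each number, with the number as a block. For number 1 the match was not specific: Chat negative 1 correlated at 0.29 with Chat positive 1 and at 0.30 with Chat positive 3. The SEs, p-values and counts within numbers below rest on pairing all 3 numbers. The members' median SE then fell from 0.44 to 0.07, while their median log2 change stayed at 0.09. No member passed in edgeR (0.339% of genes tested did) or in limma-voom with the block (1 of 12967 genes tested did). All edgeR 95% intervals lay between -0.49 and 0.62. At an unadjusted p under 5% there were 10 of 37 members, where 16.5% of genes tested were. Of these, Ccnb1, Cdc20, Ube2c, Birc5, Cenpa, Hmmr, Anln and Smc4 were above 0, and Cenpe and Mki67 below.

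By direction within numbers, 19 of 37 members were higher in Chat positive cells for 3 of 3 numbers, where 22.3% of genes tested were, and 5 were lower for 3 of 3, where 17.3% were. Those 5 were Cenpe, Cenpf, Kif23, Mki67 and Top2a. Anln was at 0.22 (SE 0.08, edgeR adjusted p = 0.234, higher in 3 of 3), Cenpa at 0.22 (SE 0.06, adjusted p = 0.144, higher in 3 of 3) and Ccnb1 at 0.20 (SE 0.07, adjusted p = 0.210, higher in 3 of 3). Smc4 lay at 0.19 with an interval of 0.05 to 0.33. Tpx2, Ccna2 and Cdca8 lay within 0.03 of 0, with intervals of -0.15 to 0.10, -0.13 to 0.13 and -0.14 to 0.16.

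Mki67 (Entrez 17345, chr7:135689784-135716450) had the largest difference in size of the 37, -0.33 with the block (SE 0.07, edgeR adjusted p = 0.0961, interval -0.49 to -0.18), and lay lower in Chat positive cells for 3 of 3 numbers. DESeq2 with the block called it at -0.34 with an adjusted p of 0.00468, the only member it called, where 3.67% of genes tested were called. Limma-voom with the block did not call it (adjusted p = 0.142), and over all settings its adjusted p ran from 0.00468 to 1.00. Without the number 2 libraries the blocked edgeR change was -0.42 (adjusted p = 0.135).

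The 3 longest members had the 3 lowest blocked changes. The members with a longest transcript over 7000 bases, Mki67, Cenpf and Cenpe, had blocked changes of -0.33, -0.18 and -0.23, a median of -0.23. Over all 1049 genes of that length the median was -0.14, whereas it was 0.09 in the 683 genes under 1000 bases. From the shortest to the longest class the medians of all genes were 0.09, 0.07, 0.02, -0.04 and -0.14, and those of the members 0.20 (1 gene, Cks2), 0.12, 0.09, 0.06 and -0.23. Across the 37 members the blocked change had Pearson's r of -0.54 and Spearman's rho of -0.31 with log2 transcript length, and across 12403 genes of known length r was -0.17 and rho -0.25. These are correlations across genes of the same 6 libraries and not across samples, and the part of length in the change of Mki67 was not tested.

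**Figure D3:**
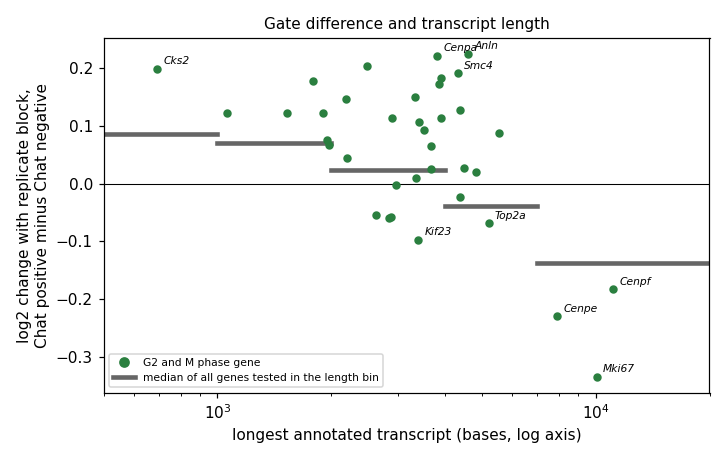
Blocked log2 change (Chat positive minus Chat negative) against the longest transcript (bases, log axis) for the 37 members (points) and the median of all genes in each of 5 length classes (bars). The median of all genes falls from 0.09 under 1000 bases to -0.14 over 7000, and Mki67, Cenpf and Cenpe lie lowest among the members.

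The difference between sample numbers was the main pattern of these genes. With the gate as a term, an F-test of the number terms in edgeR called 36 of 37 members, all 36 highest in number 2, where 32.5% of genes tested were called. Cks2 was the exception (edgeR adjusted p = 0.0964). Both number 2 libraries lay above the other 4 for 37 of 37 members, where 26.3% of genes tested had this order. The median fold for number 2 was 2.18, at 2.19 within Chat negative and 2.16 within Chat positive libraries, beside 0.996 over all genes tested. DESeq2 and limma-voom called 36 members as well, where they called 4326 and 3877 of the 12967 genes tested.

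By role, the median fold was 2.36 for the mitotic kinases, 2.31 for kinesins and 2.27 for passenger subunits. It was 2.18 for the group of anaphase-promoting complex partners and Cdca3, and 2.16 for spindle factors. The cyclin group and kinetochore genes had 2.15, chromosome proteins 2.07 and cytokinesis 2.05. Single members spread wider than the groups. Kif23 had 2.76 (2.85 in Chat negative and 2.67 in Chat positive), Ccnb1 2.71 (2.85 and 2.59), and Plk1 2.59 (2.87 and 2.34). At the low end were Smc4 at 1.36, Cks2 at 1.49, Stmn1 at 1.63 and Cenpa at 1.68. Whether members differ from each other in this fold was not tested.

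In log2 terms, number 2 minus number 1 was 1.23 (SE 0.09) for Kif23, 1.10 (SE 0.09) for Plk1, 1.12 (SE 0.08) for Mki67 and 0.39 (SE 0.08) for Smc4. Against number 3 the same differences were 1.74 (SE 0.10), 1.72 (SE 0.10), 1.52 (SE 0.08) and 0.49 (SE 0.08). The edgeR adjusted p of the number terms was 9.30e-06 for Kif23, 1.03e-05 for Plk1, 9.30e-06 for Mki67 and 0.00223 for Smc4. Each number has 1 library per gate, so these SEs and p-values reflect how alike same-numbered libraries were. They do not measure variation between whatever units the numbers stand for.

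**Figure D4:**
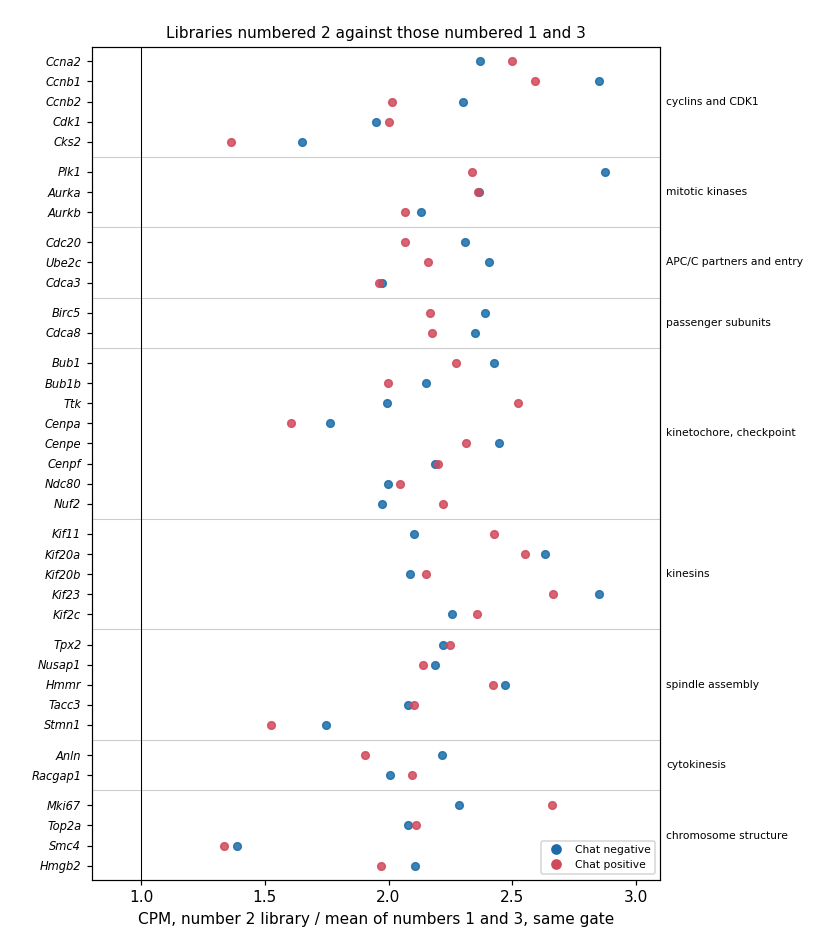
Fold of the number 2 library over the mean of numbers 1 and 3 for each gene, in Chat negative (blue) and Chat positive (red) libraries. Every gene lies above 1 in both gates, from 1.33 (Smc4, Chat positive) to 2.87 (Plk1, Chat negative).

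Numbers 1 and 3 differed less. Number 3 lay below number 1 for 36 of 37 members, where it did for 6391 of the 12967 genes tested. The members' median log2 difference was -0.29, beside 0.00 over all genes tested. Single members ran from -0.63 (SE 0.09) in Plk1 to 0.07 (SE 0.10) in Kif20b. Without the number 2 libraries, edgeR called 0 of 37 between numbers 1 and 3 (0% of 13025 genes tested), with 26 members at an unadjusted p under 5%, where 12.9% of genes tested were. Limma-voom called 0 (26 at an unadjusted p under 5%, beside 12.3% of genes tested). DESeq2 called 10, where 1.03% of genes tested (134) were called. Over the 6 libraries the log2 levels of the 37 genes ran nearly in parallel, with a median Pearson's r of 0.98 over 666 pairs and a lowest of 0.76 (Smc4 with Mki67). These r values share the same libraries and depth and describe these 6 samples only.

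Other genes of the cell cycle, taken from lists by function, were read in the same fits. Of 84 further G2 and M phase genes, all tested, 0 passed between the gates in edgeR. At an unadjusted p under 5% there were also 0, where 315 of the 12967 genes tested were. DESeq2 with the block called 2, where 3.67% of genes tested were called. Above 0 were 62 of the 84, where 6594 of the 12967 genes tested were. Between numbers 76 of the 84 passed, all highest in number 2, where 32.5% of genes tested passed. Their median fold was 1.98. Prc1, which bundles midzone microtubules, stood at 135, 272 and 98.0 CPM in the Chat negative and 129, 280.2 and 103 in Chat positive libraries. Ccnf had a fold of 2.37, the condensin subunit Smc2 2.18 and the cytokinesis regulator Ect2 2.08. Named after their values were seen, the transcription factors Foxm1 and Mybl2 (B-MYB), which drive this gene class, had folds of 2.26 and 2.19, and Pttg1 (securin), which did not pass, had 0.943.

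The 14 core subunits of the anaphase-promoting complex had 0 edgeR calls between the gates. At an unadjusted p under 5% there were also 0, where 315 of the 12967 genes tested were. Between numbers 7 of the 14 passed, all highest in number 2, where 32.5% of genes tested were called. Their median fold was 1.22. Anapc5, Anapc15 and Anapc1 had 2.16, 1.91 and 1.54, and Cdc27, Anapc4 and Cdc23 had 1.37, 1.25 and 1.23. All 40 S phase genes passed between numbers, where 32.5% of genes tested did, all highest in number 2, with a median fold of 1.87. Between the gates they had 0 edgeR calls and 0 at an unadjusted p under 5%, again beside 315 of 12967 genes tested. The ribonucleotide reductase subunits Rrm2 and Rrm1 had folds of 2.47 and 2.21, and the helicase subunits Mcm5 and Mcm3 2.24 and 2.11.

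G1 and quiescence genes were mixed. Of 38 tested, 0 passed between the gates in edgeR. At an unadjusted p under 5% there was 1, E2f6, where 315 of the 12967 genes tested were. DESeq2 with the block called 3, where 3.67% of genes tested were called. Between numbers 26 passed, 17 highest and 9 lowest in number 2, where 32.5% of genes tested passed. The antiproliferative Btg1 stood at 1345, 797 and 1422 CPM in the Chat negative and 1482, 817 and 1403 in Chat positive libraries, lowest in number 2, and Btg2 at 199, 120.3 and 211 CPM (Chat negative) and 172, 114 and 193 CPM (Chat positive). Highest in number 2 were the CDK4 and CDK6 inhibitor genes Cdkn2b and Cdkn2c, with folds of 4.21 and 2.26, and the repressors E2f7 and E2f8, with 2.37 and 2.36.

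**Figure D5:**
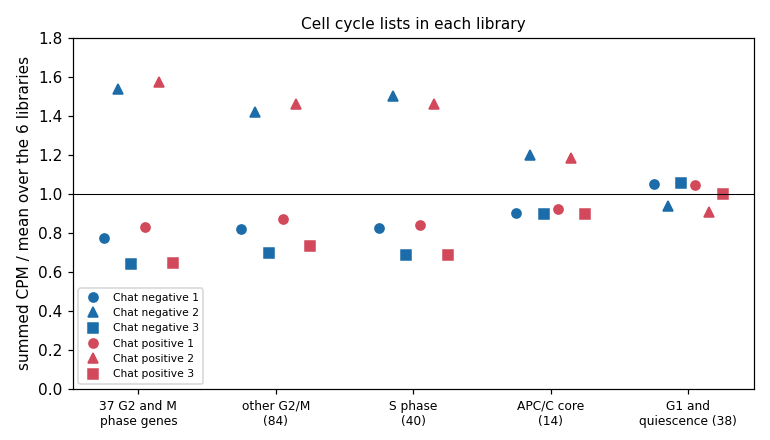
Summed CPM of 5 gene lists in each library, divided by the list's mean over the 6 libraries, with blue for Chat negative, red for Chat positive, and circles, triangles and squares for sample numbers 1, 2 and 3. The triangles are highest in the first 4 lists, and lowest in the G1 and quiescence genes. That last sum is weighted towards abundant genes such as Btg1 (797 to 1482 CPM). Gene by gene, 17 of its 38 genes passed highest and 9 lowest in number 2.

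Other measures moved with number 2 as well. The receptor genes Il2ra and Kit were highest there, with Il2ra at 3619, 5777 and 3799 CPM in the Chat negative and 4077, 5755 and 4135 in Chat positive libraries and Kit at 169, 247 and 153 CPM (Chat negative) and 194, 276 and 157 CPM (Chat positive). Gata3 was lowest there, at 2468, 1829 and 2545 CPM (Chat negative) and 2425, 1603 and 2355 CPM (Chat positive), as was Il7r at 1310.1, 797 and 1497 CPM (Chat negative) and 1153, 732 and 1164 CPM (Chat positive). Summed over 8 T cell markers, of which 3 had at most 10 counts in every library, the level was 22.8 and 26.4 CPM in the number 2 libraries and 45.4 to 54.2 CPM in the other 4, mostly from Cd3g and Lef1. The 8 myeloid markers, 3 of them at most 10 counts, summed to 8.55 and 8.58 CPM against 20.4 to 24.0, mostly Cd68, and 4 epithelial markers to 34.4 and 37.4 CPM against 54.4 to 89.7, mostly Epcam, with Krt8 at no more than 2 counts. Of 5 stroma and endothelium markers, the sum was 47.4 and 58.0 CPM against 68.1 to 96.5, mostly Pecam1, with Cdh5 at 0. The NK cell gene Nkg7 lay the other way, at 16.5, 23.1 and 12.6 CPM (Chat negative) and 12.2, 16.7 and 8.25 CPM (Chat positive). The basophil gene Mcpt8 stood at 134, 30.8 and 203 CPM (Chat negative) and 124, 24.9 and 147 CPM (Chat positive), while Mcpt4, Cpa3 and Ms4a2 had no count. The part of these shifts in the members' rise was not tested, and what set the number 2 samples apart cannot be told from the labels.

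Reads of overlapping genes may be mixed, since the sources used here do not give the counting program or its strand setting. On the opposite strand, exons of other genes cover 29.3% of the exon bases of Kif20a (Cdc23), 22.8% of Ube2c (Tnnc2), 12.5% of Ccna2 (Exosc9), 8.14% of Tacc3 (Tmem129) and 7.09% of Plk1 (Gm44985), and under 5% of Nusap1, Cdc20 and Cdca8. Near copies may share reads with Ccnb1 (42.1% of its 50-base words occur elsewhere, chiefly in Ccnb1-ps) and Hmgb2 (21.9%, chiefly Gm4739), besides Cks2 and Stmn1. Levels of these members are therefore uncertain, although their number 2 libraries were the highest, as for the other members.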

How the data were processed

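RNA from 3 Chat negative and 3 Chat positive samples of mouse ILC2s was amplified with a SMARTer kit for small inputs, as the labels' protocols state. The deposited table holds raw counts per Entrez gene for each library, not normalised by the authors, since its values are whole and its columns sum to unequal totals. Tools named in the submitters' processing notes are CASAVA (1.8.2) and STAR (2.3.0), with the mm10 build. Of 27179 IDs, 25275 matched the RefSeq genes of GRCm38.p6, and the other 1904 stayed in totals and tests.

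Counts were filtered with filterByExpr (12967 genes kept), scaled with TMM factors and fitted in edgeR, whose quasi-likelihood F-test was used (robust, two-sided, Benjamini-Hochberg adjustment over all genes, threshold 5%) in R 4.3.3 with edgeR 4.0.16. Gates were compared without the sample number, as the labels state no pairing, and numbers with an F-test of their terms beside the gate. Transcript lengths came from GENCODE vM21, known for 95.7% of genes tested. Libraries of a gate differed beyond sampling noise (chi-square over its degrees of freedom of at least 29.9).

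Deviations of same-numbered libraries from their gate's mean correlated across genes at 0.29, 0.67 and 0.43 for numbers 1, 2 and 3, so numbers were treated as pairs in a blocked fit. That pairing rests on the data and not on a label, and Chat negative 1 also correlated at 0.30 with Chat positive 3. Deviations from a mean of 3 libraries cancel out, so a shift in number 2 alone makes numbers 1 and 3 correlate across the gates. These values therefore cannot settle the pairing of numbers 1 and 3. The members, the other lists and the tests were chosen with earlier results of these data known. All members are named. Of other lists, up to 6 genes by p are eligible, of marker lists the 2 highest, and exceptions are marked where they stand or serve as defining markers. Alternatives were other scaling, filters, dispersions and thresholds, the block, DESeq2 1.42.0, limma 3.58.1 (voom) and leaving out each library. Leaving out both libraries of a number was added after the data were seen. Fits were also run on simulated counts. There far fewer genes differed between numbers than in these data, so that run does not show how the gate fit behaves here.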

Additional observations from a re-analysis of the deposited data

How the results depend on the processing

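Over 22 alternatives, the 37 genes gave 0 calls between the gates in either direction, except 1 lower member (Mki67) under DESeq2 with the replicate block. The same setting called 2 of the other G2 and M phase genes and 3 G1 and quiescence genes, where edgeR called 0 of each. Over all genes tested that setting called 3.67%. With the replicate block, edgeR called 0 members and the median log2 change was 0.09. The count of members above 0, 27 with all libraries, ranged from 2 (without Chat positive 2) to 37 (without Chat negative 2) when 1 library was left out, and the median from -0.41 to 0.54. Leaving out 1 library puts the sample numbers out of balance between the gates. With both libraries of number 1, 2 or 3 left out, the count was 26, 25 and 28 and the median 0.05, 0.09 and 0.09. Over all alternatives 35 of 37 members changed sign at least once, all but Cks2 and Smc4. Between numbers, 34 to 36 members passed with 1 library left out, 36 without both libraries of number 1 or of number 3, and 0 without both of number 2. Over all genes tested, passes with 1 library left out ran from 1368 of 13206 (without Chat negative 2) to 5173 of 13246 (without Chat positive 3). They were 3924 of 13123 without number 1, 4727 of 13055 without number 3 and 0 of 13025 without number 2. The members' median SE of the gate difference was 0.44 without the block and 0.07 with it, and 3 libraries per gate limit both fits.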
